A study of Mus musculus with 6 samples.

Results

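Adipokines are proteins that fat cells release to act on other tissues or on neighbouring cells. The 9 adipokine genes described here, *Adipoq*, *Lep*, *Retn*, *Cfd*, *Rbp4*, *Nampt*, *Apln*, *Angptl4*, and *Agt*, were chosen by name as rows of the deposited gene table, which lists 55491 genes, 32664 of which had at least 1 count in any library and were tested. All 9 passed that filter, and the lowest count of any of them in a library was 1393. RNA came from the whole inguinal white adipose tissue (IWAT), a fat pad under the skin, of male C57BL/6J mice aged 4 weeks, with 3 *Ebf2+/+* mice and 3 heterozygous *Ebf2E165X/+* mice, and each library stands for 1 mouse. The mutant mice carry, on 1 copy of *Ebf2* in every cell of the body, a stop codon introduced by CRISPR/Cas9 (p.E165X). The labels name no treatment for either group. *Ebf2* encodes early B cell factor 2, a transcription factor of fat cell precursors and of brown and beige fat cells.

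Fat cells secrete adiponectin, leptin, resistin, and adipsin (complement factor D, the product of *Cfd*) into the blood in amounts that change with fat mass and feeding. Adiponectin increases the response of liver and muscle to insulin, leptin reports energy stores to the brain, and the other members carry retinol, supply NAD, regulate blood pressure and vessels, or restrain lipoprotein lipase. Many of these genes are switched on late in fat cell differentiation, under PPARγ and C/EBPα, so their transcripts are used as marks of mature white adipocytes. In RNA from a whole fat pad, fewer adipocytes and less RNA per adipocyte cannot be told apart.

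The genomic letters just before the start of 2 of the best-known members, *Adipoq* and *Lep*, are shown because they hold matches to short motifs of general and fat cell transcription. RefSeq promoters on GRCm38.p6 were at hand for 8 members, 9 promoters in all, and the 250 bases before each start were searched on both strands. The *Adipoq* stretch is chr16:23146286-23146535 and the *Lep* stretch chr6:29059971-29060220, both on the plus strand and both ending just before the RefSeq start. The GENCODE M21 starts given with the genes below can differ, and that of *Lep* is the last base of its stretch. Each is printed 5′ to 3′, with the matches in capitals (CCAAT or its reverse complement ATTGG in *Adipoq*, TTGCGCAA in *Lep*):
Adipoq: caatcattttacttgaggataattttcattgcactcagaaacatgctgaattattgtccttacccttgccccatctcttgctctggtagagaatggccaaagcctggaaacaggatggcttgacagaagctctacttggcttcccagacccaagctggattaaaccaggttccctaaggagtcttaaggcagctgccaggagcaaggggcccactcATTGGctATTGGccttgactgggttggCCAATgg
Lep: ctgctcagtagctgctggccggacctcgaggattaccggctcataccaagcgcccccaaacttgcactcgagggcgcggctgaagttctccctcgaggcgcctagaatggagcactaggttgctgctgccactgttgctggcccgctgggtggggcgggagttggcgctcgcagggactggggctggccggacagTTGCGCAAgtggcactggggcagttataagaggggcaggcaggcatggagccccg
The *Adipoq* stretch held 3 CCAAT matches, whose first bases lie 34, 27, and 7 bases before the RefSeq start. A CCAAT match was also found before *Rbp4*, and in 33.8% of all 32851 promoters of the same length. The C/EBP palindrome TTGCGCAA, which reads the same on both strands, was found with its first base 55 bases before the RefSeq start of *Lep* and in 0.164% of all promoters. TATAAA was found before *Agt* and *Rbp4* and in 12.4% of all promoters. The EBF core, TCCC followed after any 2 bases by GGGA (0.779% of all promoters), and the PPAR-RXR direct repeat, AGGTCA 2 times with any 1 base between (0.0335%), had no match before any of the 8 members, which says only that these letters are not in this window. None of the 5 motifs contains another.

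*Ebf2* itself had 38.3, 41.3, and 37.2 CPM in the *Ebf2+/+* libraries and 22.8, 22.9, and 21.1 CPM in the *Ebf2E165X/+* libraries, where CPM is the count relative to the library size after scaling by the TMM factors of edgeR, multiplied to a total of 1e6. The groups did not overlap, and the log2 fold change was −0.81 (SE 0.076, adjusted *P* = 0.0596 in edgeR and 1.23e-13 in DESeq2, which called it). Total counts ran from 106820505 to 135039488 per library. The labelled tissue showed its defining transcripts, with the adipocyte fatty acid carrier *Fabp4* at 3789 to 7524 CPM. The third *Ebf2E165X/+* library stood apart from the others, because the 8 skeletal muscle markers summed to 39620 CPM there and to 679 to 6910 CPM in the other 5 libraries. Each adipokine's fold change is given with and without that library.

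All 9 adipokine transcripts had a lower fitted level in *Ebf2E165X/+* than in *Ebf2+/+* IWAT, by log2 fold changes of −0.079 to −0.48, and none of the 9 differences passed the test. With edgeR's quasi-likelihood test, the count of members called at an adjusted *P* under 0.05 and a fold change above 1.5 was 0, against 0.00918% of all genes tested (3 genes). DESeq2, which called 98 genes or 0.3%, and limma-voom, which called 4 genes or 0.0122%, also called 0 members. At an unadjusted *P* under 0.05 there was 1 member, *Nampt*, with each of the 3 tools, where edgeR had 4.77% of all genes at that level, 3.09% with a lower value in *Ebf2E165X/+* mice. The median log2 fold change of the members was −0.28, beside 0.022 over the 10386 genes with a mean of at least 10 CPM and 0.014 over all genes tested. A log2 fold change below 0 was found for 47.9% of all genes tested and 43.0% of those of at least 10 CPM. The libraries of the genotypes did not overlap for 2 of 9 members, *Adipoq* and *Nampt*, both lower in *Ebf2E165X/+* mice, beside 5.75% of all genes tested that were lower without overlap and 7.73% of the genes of at least 10 CPM. No member was higher without overlap, as 5.09% of all genes were, and genes without overlap in either direction made up 10.8%. Without the third *Ebf2E165X/+* library, 8 of 9 members had a log2 fold change below 0, the median was −0.21, and the same 2 members were lower without overlap, beside 10.5% of all genes tested that were lower and 10.7% that were higher without overlap among these 5 libraries.

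**Figure D1:**
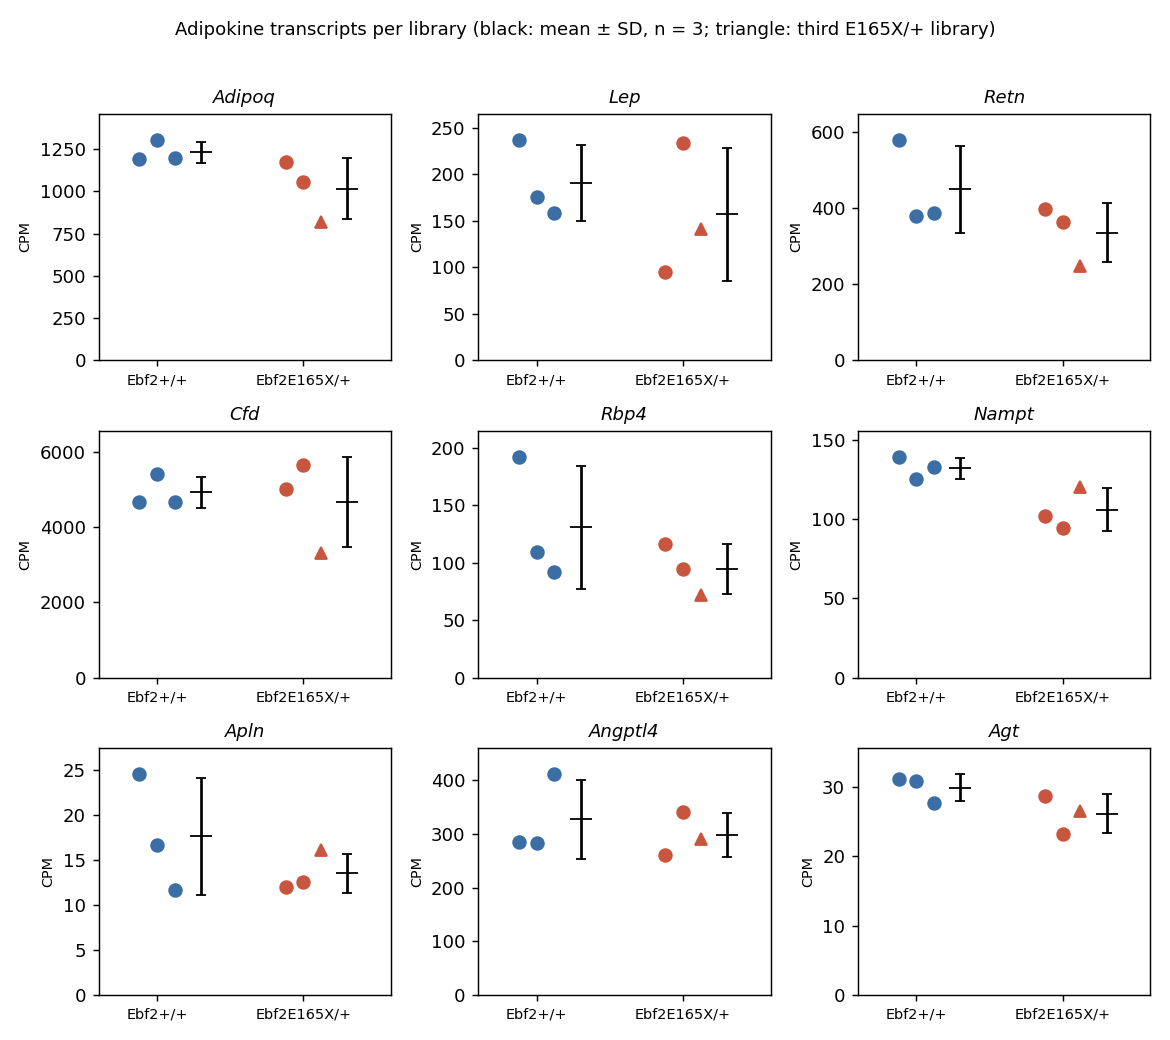
CPM of the 9 adipokine genes in each library, *Ebf2+/+* in blue and *Ebf2E165X/+* in red, with the mean and SD of the 3 mice of a genotype in black and a triangle for the third *Ebf2E165X/+* library, on axes that start at 0. The red points lie below all blue points for *Adipoq* and *Nampt* only, and the genotypes overlap for the other 7 genes.

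*Adipoq* (ENSMUSG00000022878, GRCm38 chr16:23146536-23158028, plus strand) encodes adiponectin, which circulates as multimers. Its levels were 1190, 1303, and 1199 CPM in *Ebf2+/+* mice and 1172, 1054, and 820 CPM in *Ebf2E165X/+* mice. The first mutant mouse lay just under the lowest wild-type mouse, and the third was well below all others. The mean was 1231 ± 62.6 CPM in *Ebf2+/+* and 1015 ± 179 CPM in *Ebf2E165X/+* mice (SD, n = 3 each), or 82.5% of the wild-type mean. The log2 fold change was −0.28 (SE 0.17, 95% interval −0.67 to 0.11), with an edgeR *P* of 0.136 before and 0.783 after adjustment over all genes. Without the third *Ebf2E165X/+* mouse it was −0.15, and with library totals in place of the TMM factors the genotypes overlapped.

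*Lep* (ENSMUSG00000059201, chr6:29060220-29073877, plus strand) encodes leptin. It had 237, 176, and 159 CPM in *Ebf2+/+* mice and 94.8, 234, and 141 CPM in *Ebf2E165X/+* mice. The second mutant mouse was close to the highest wild-type mouse, while the first was the lowest of the 6. *Lep* was the most variable member within a genotype, with an SD of 0.51 on the log2 scale, above 96.4% of the genes of at least 10 CPM. The log2 fold change of −0.28 (SE 0.31, 95% interval −1.01 to 0.45, adjusted *P* = 0.804 in edgeR) therefore came with an interval that reaches from a fold of 0.497 to one of 1.36. Leaving out the first *Ebf2E165X/+* mouse moved it to −0.02, leaving out the second moved it to −0.69, and without the third it was −0.21.

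*Retn* (ENSMUSG00000012705, chr8:3655770-3660110, plus strand) encodes resistin, which in mice is made by adipocytes and opposes insulin action. Its levels were 579, 380, and 387 CPM in *Ebf2+/+* and 397, 364, and 248 CPM in *Ebf2E165X/+* libraries. The highest value was that of the first wild-type mouse and the lowest that of the third mutant mouse, and the other 4 libraries lay close together. The log2 fold change was −0.42 (SE 0.23, 95% interval −0.95 to 0.11, adjusted *P* = 0.783 in edgeR), and it was −0.20 without the first *Ebf2+/+* mouse and −0.24 without the third *Ebf2E165X/+* mouse.

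*Cfd* (ENSMUSG00000061780, chr10:79890853-79892655, plus strand) encodes adipsin, the protease that cleaves factor B in the alternative complement pathway. It was measured at 4675, 5405, and 4677 CPM in *Ebf2+/+* mice and at 5012, 5639, and 3324 CPM in *Ebf2E165X/+* mice. The second mutant mouse had the highest and the third mutant mouse the lowest value of all. The log2 fold change of −0.079 (SE 0.25, 95% interval −0.67 to 0.51, adjusted *P* = 0.948 in edgeR) was the one closest to 0 among the members, and without the third *Ebf2E165X/+* mouse its sign turned, at 0.11.

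*Rbp4* (ENSMUSG00000024990, chr19:38116629-38125281, minus strand) encodes the plasma carrier of retinol. Its values were 192, 109, and 92.3 CPM in *Ebf2+/+* and 116, 95, and 72.1 CPM in *Ebf2E165X/+* mice. The first wild-type mouse stood far above the other 5. *Rbp4* had the most negative log2 fold change of the members, −0.48 (SE 0.29, 95% interval −1.15 to 0.19, adjusted *P* = 0.783 in edgeR), and it was −0.11 without that mouse and −0.32 without the third *Ebf2E165X/+* mouse.

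*Nampt* (ENSMUSG00000020572, chr12:32819545-32853349, plus strand) encodes the rate-limiting enzyme of NAD salvage from nicotinamide, which also occurs outside cells as visfatin. It stood at 139, 125, and 133 CPM in *Ebf2+/+* and at 102, 94.1, and 120 CPM in *Ebf2E165X/+* libraries. All 3 mutant mice were below all wild-type mice, and here the third mutant mouse, with the muscle transcripts, was the highest of its genotype. The log2 fold change was −0.33 (SE 0.11), and *Nampt* was the only member whose 95% interval, −0.57 to −0.08, did not include 0. Its *P* value was 0.0162 before adjustment, 0.783 after adjustment over all genes in edgeR, and 0.228 after adjustment in DESeq2. The estimates with 1 mouse left out ran from −0.43, without the third *Ebf2E165X/+* mouse, to −0.25. *Nampt* overlaps the noncoding gene *Gdap10* on the same strand in the GENCODE M21 annotation, so reads from this pair cannot be told apart in the shared part, and the other 8 members overlap no annotated gene.

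*Apln* (ENSMUSG00000037010, chrX:48025146-48034853, minus strand) encodes apelin, a peptide ligand that acts on vessels and heart. It was the least abundant member, with 24.5, 16.7, and 11.6 CPM in *Ebf2+/+* and 12, 12.5, and 16.1 CPM in *Ebf2E165X/+* mice. The third wild-type mouse was the lowest of the 6. Its log2 fold change was −0.38 (SE 0.26, 95% interval −0.98 to 0.22, adjusted *P* = 0.783 in edgeR), and it was −0.079 without the first *Ebf2+/+* mouse, −0.63 without the third *Ebf2+/+* mouse, and −0.52 without the third *Ebf2E165X/+* mouse.

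*Agt* (ENSMUSG00000031980, chr8:124556534-124569706, minus strand) encodes angiotensinogen, the precursor that renin cuts on the way to angiotensin II. Its levels were 31.2, 30.9, and 27.7 CPM in *Ebf2+/+* and 28.8, 23.3, and 26.5 CPM in *Ebf2E165X/+* mice. Only the first mutant mouse reached the wild-type range. *Agt* varied least within a genotype, with an SD of 0.13 on the log2 scale, and had a log2 fold change of −0.19 (SE 0.099, 95% interval −0.42 to 0.038, adjusted *P* = 0.783 in edgeR). It was −0.11 without the second and −0.20 without the third *Ebf2E165X/+* mouse.

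*Angptl4* (ENSMUSG00000002289, chr17:33773750-33781830, minus strand) encodes angiopoietin-like 4, an inhibitor of lipoprotein lipase that rises in fasting. It had 285, 284, and 411 CPM in *Ebf2+/+* and 260, 341, and 291 CPM in *Ebf2E165X/+* mice. The genotypes overlapped widely, and the third wild-type mouse was the highest. The log2 fold change was −0.14 (SE 0.18, 95% interval −0.55 to 0.28, adjusted *P* = 0.839 in edgeR), and without the third *Ebf2+/+* mouse it turned to 0.041, while it was −0.12 without the third and −0.047 without the first *Ebf2E165X/+* mouse.

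**Figure D2:**
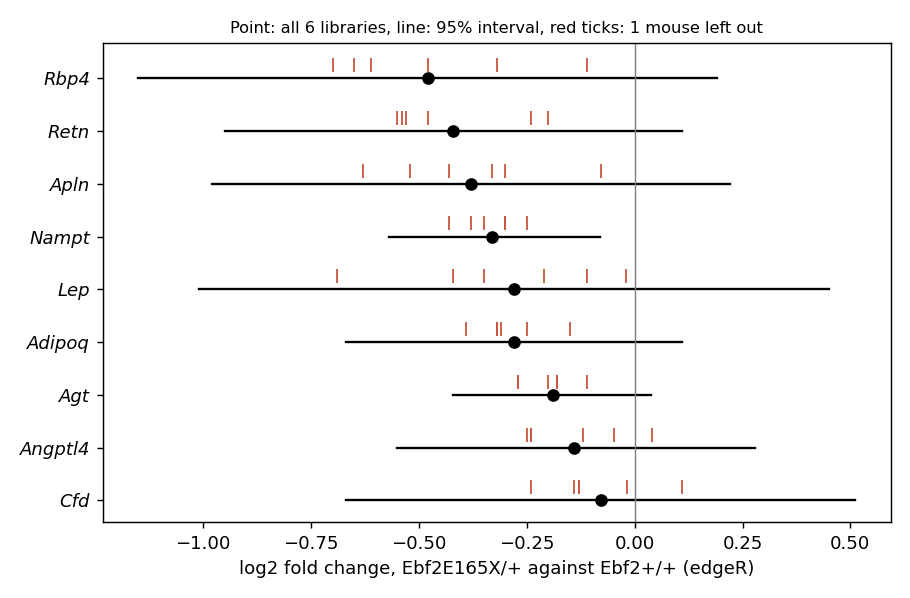
Log2 fold changes of the 9 adipokine genes from edgeR, *Ebf2E165X/+* against *Ebf2+/+*, with the 95% interval as a line and the 6 estimates that leave out 1 mouse each as red ticks. All points lie left of 0, the interval includes 0 for 8 of the genes, and ticks cross 0 for *Cfd* and *Angptl4*.

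Levels of different genes were compared as CPM per kb of exon sequence, with exon lengths from GENCODE M21. The labels name a library kit of NEB, while the study's supplement describes 3′ mRNA libraries, in which counts do not grow with length, so the order by CPM is given as well. *Cfd* was by far the most abundant member, at 5194 ± 884 CPM per kb (SD, n = 6), followed by *Adipoq* at 813 ± 122 and *Retn* at 249 ± 67.4. Below them stood *Angptl4* at 88.1 ± 15.6, *Rbp4* at 83.9 ± 31.2, and *Lep* at 51.8 ± 16.4 CPM per kb. *Nampt* at 23.5 ± 3.47, *Agt* at 14.8 ± 1.57, and *Apln* at 4.95 ± 1.55 CPM per kb closed the order. *Angptl4* and *Rbp4* did not differ beyond their spread, since *Angptl4* was the higher of the pair in 3 of 6 libraries. The ranges of *Rbp4* and *Lep* overlapped, although *Rbp4* was higher within each of the 6 libraries, and the other neighbours did not overlap. By CPM alone, *Lep* ranked 5, *Nampt* 6, and *Rbp4* 7, and the other members kept their places.

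**Figure D3:**
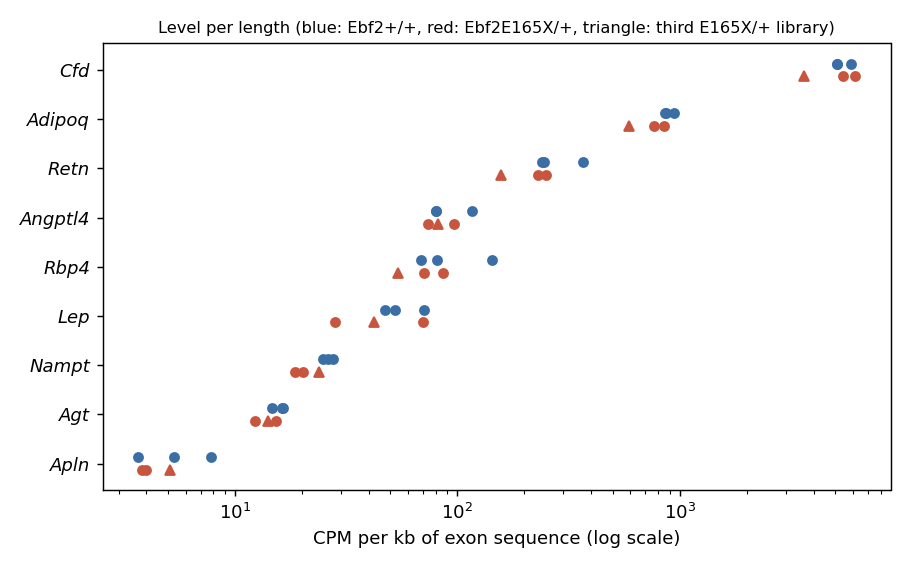
CPM per kb of exon sequence for each adipokine gene on a log axis, in the order of the mean over 6 libraries, with *Ebf2+/+* in blue, *Ebf2E165X/+* in red, and a triangle for the third *Ebf2E165X/+* library. The order runs from *Cfd* at 5194 to *Apln* at 4.95 CPM per kb, and the points of *Angptl4* and *Rbp4* share 1 range.

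The 9 transcripts together summed to 7354, 7830, and 7098 CPM in *Ebf2+/+* and 7194, 7858, and 5060 CPM in *Ebf2E165X/+* libraries, a sum that rests mostly on *Cfd*. The third mutant mouse was far below the other 5, which lay between 7098 and 7858 CPM. It had the lowest value for 4 members, *Adipoq*, *Retn*, *Cfd*, and *Rbp4*, and the first *Ebf2+/+* mouse had the highest value for 6, *Lep*, *Retn*, *Rbp4*, *Nampt*, *Apln*, and *Agt*. All 9 members varied more within a genotype than the median gene of at least 10 CPM, whose SD was 0.12 on the log2 scale. The members did not vary alike. *Retn* and *Rbp4* were each other's nearest member, with a root mean square difference of 0.15 between their log2 CPM profiles, each centred on its mean over the 6 libraries. *Adipoq* and *Cfd* differed by 0.16 and *Nampt* and *Agt* by 0.14, whereas *Lep* was no closer than 0.42 to any other member.

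By the same measure, over 6 libraries and among the 10386 genes with a mean of at least 10 CPM, the genes most like *Adipoq* were *Dglucy* (0.046), *Tst* (0.054), and *Aqp7* (0.054), the last a glycerol channel of adipocytes. *Retn* was most like *Nabp1* (0.034), *Trhde* (0.055), and *Klb* (0.075), the coreceptor of FGF21. *Cfd* was most like *4932422M17Rik* (0.065), *C3* (0.084), and *Spaca6* (0.086), and *C3* encodes the complement protein on which the pathway of adipsin acts. The nearest genes to *Rbp4* were *Clstn3* (0.058), *Aldh1a7* (0.084), and *G6pdx* (0.11), and those to *Lep* were *Trabd2b* (0.13), *Ppp1r3d* (0.18), and *Klhdc7a* (0.19). *Nampt* was nearest to *Mlycd* (0.05), *Mrpl30* (0.052), and *Esrra* (0.062), a nuclear receptor of mitochondrial genes. For *Apln* they were *Mest* (0.12), *Tecr* (0.12), and *Prnd* (0.15), for *Angptl4* they were *Pfkfb3* (0.074), *Vgll4* (0.076), and *Rgs7bp* (0.08), and for *Agt* they were *Yaf2* (0.04), *Glrx3* (0.041), and *Slc25a16* (0.047). These are likenesses of profile over 6 libraries from 2 genotypes and carry no test.

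The adipokines were next set beside 12 other adipocyte transcripts, most but not all of them of lipid storage and lipolysis (*Plin1*, *Plin4*, *Fabp4*, *Cidec*, *Pnpla2*, *Lipe*, *Slc2a4*, *Aqp7*, *Dgat1*, *Dgat2*, *Adrb3*, and *Cavin1*). Of these, 11 had a log2 fold change below 0, the median was −0.28 as for the adipokines, 3 did not overlap between genotypes (all lower), and edgeR and DESeq2 each called 0. The values reached from −0.81 (SE 0.29) for *Dgat2*, an enzyme of triglyceride synthesis, to 0.015 (SE 0.19) for the lipid droplet protein gene *Plin4*. Averaged as log2 CPM and set against the wild-type average, they stood at 0.074, 0.026, and −0.099 in *Ebf2+/+* and at −0.15, −0.27, and −0.60 in *Ebf2E165X/+* mice. All mutant mice lay below all wild-type mice. The difference of −0.34 had a *P* of 0.1 in a two-sided exact permutation test, the smallest that 3 mice against 3 can give, and it was −0.21 without the third *Ebf2E165X/+* mouse.

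**Figure D4:**
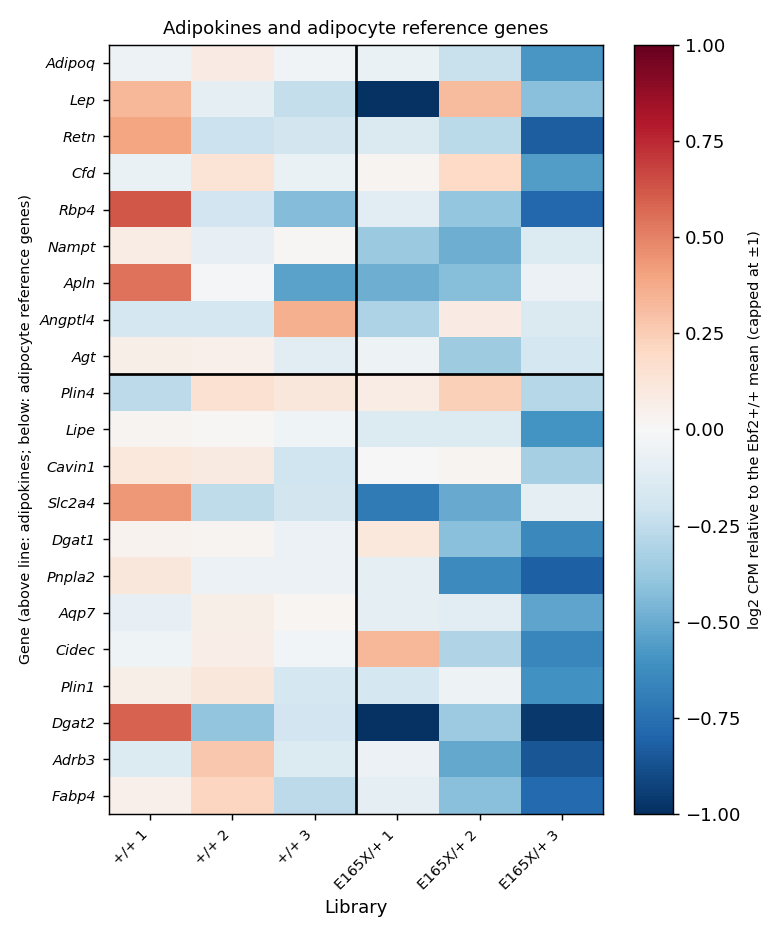
Log2 CPM of the 9 adipokine genes (above the line) and 12 adipocyte reference genes (below it) in each library, relative to the *Ebf2+/+* mean of the gene and capped at ±1, with red for higher and blue for lower. The column of the third *Ebf2E165X/+* mouse is the bluest, while *Lep* and *Dgat2* are at their lowest in the first *Ebf2E165X/+* mouse.

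Relative to the mean of these 12 transcripts, 0 of 9 adipokines separated the genotypes, beside 34.4% of all genes tested, 33.6% higher and 0.784% lower in *Ebf2E165X/+* mice. By construction, a gene of equal CPM in all libraries stands higher on this scale, since the reference mean was lower in every mutant mouse. *Adipoq* kept close to the reference genes in every library, at −0.12, 0.058, and 0.063 in *Ebf2+/+* and 0.083, 0.043, and 0.011 in *Ebf2E165X/+* mice on the log2 scale, a difference of 0.046 (two-sided exact permutation *P* = 0.7). *Cfd* had the largest difference, 0.23 (*P* = 0.2 by exact permutation), with −0.14, 0.11, and 0.03 in *Ebf2+/+* and 0.18, 0.47, and 0.034 in *Ebf2E165X/+* mice. *Rbp4* had the most negative, −0.09 (exact permutation *P* = 1). For *Nampt* the difference of means was 0.0048 (exact permutation *P* = 1), with −0.22 and −0.23 in the first 2 mutant mice and 0.46 in the third. Without the third mouse, *Nampt* lay below and *Cfd* above all wild-type values. In that setting 3.64% of all genes tested lay below and 35.4% above. These are 9 comparisons of 3 mice against 3, in which no *P* can go below 0.1, so no adjusted value could pass.

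Transcripts of the receptors and binding partners of these hormones were split in direction. Of 15 genes, 7 had a log2 fold change below 0 and 8 above, the median was 0.039, and none was called by edgeR or DESeq2. *Adipor2*, a receptor of adiponectin, had 614, 627, and 609 CPM in *Ebf2+/+* and 672, 509, and 371 CPM in *Ebf2E165X/+* mice, while *Adipor1* had 133, 125, and 127 against 130, 114, and 171 CPM. The leptin receptor gene *Lepr* was the only one of the list without overlap, at 18.9, 20.9, and 20.6 CPM in *Ebf2+/+* and 26.1, 21.0, and 21.9 CPM in *Ebf2E165X/+* mice, a log2 difference of 0.19 (SE 0.10, adjusted *P* = 0.783 in edgeR). It was thus higher by a small margin in mutant mice, opposite in sign to *Lep*. The apelin receptor gene *Aplnr* had the lowest log2 fold change, −0.42 (SE 0.23), and the angiotensin receptor gene *Agtr2* the highest, 0.38 (SE 0.21), among partners of at least 1 CPM.

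Genes of the folding, assembly, and release of adiponectin, with the deacetylase gene *Sirt1* among them, were listed as 8 genes, 6 of which were below 0, with a median of −0.051 and none called or without overlap. They ran from *Gstk1*, also known as DsbA-L, at −0.20 (SE 0.10) to *Sirt1* at 0.084 (SE 0.11). Among 13 transcription factors of adipokine genes, 10 were below 0 with a median of −0.14, and 3 did not overlap, *Ppara*, *Srebf1*, and *Cebpa*, all lower. *Ppara*, the fatty acid receptor of oxidative genes, had 10.9, 15.8, and 20.2 CPM in *Ebf2+/+* and 4.39, 6.52, and 6.11 CPM in *Ebf2E165X/+* mice. Its log2 fold change of −1.46 (SE 0.25) was called by DESeq2 (adjusted *P* = 6.34e-07) but not by edgeR (adjusted *P* = 0.377). *Cebpd* had the highest value of that list, 0.22 (SE 0.25). *Pparg*, the master regulator of fat cell differentiation, had 146, 169, and 139 CPM in *Ebf2+/+* mice and 98.2 and 74.9 CPM in the second and the third *Ebf2E165X/+* mice, while the first lay within the wild-type range.

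The lipoprotein lipase genes, on whose product *Angptl4* acts, were 10 of 10 below 0, with a median of −0.21 and 0 called. *Lmf1*, a factor that matures the lipase, was lower without overlap, at −0.25 (SE 0.083). *Lpl* itself, the lipase that releases fatty acids from triglyceride in blood, had 6894, 6346, and 6355 CPM in *Ebf2+/+* and 6617, 5963, and 4046 CPM in *Ebf2E165X/+* mice, a log2 fold change of −0.24 (SE 0.25). As for *Adipoq*, the third mutant mouse was the lowest. *Angptl8*, a partner in lipase inhibition, had the lowest log2 fold change, −0.82 (SE 0.45), with 16.2 CPM in the first wild-type mouse and 3.09 to 7.26 CPM elsewhere, and *Sel1l*, which helps the lipase fold, had the highest, −0.004 (SE 0.071). Of the 9 paralogs of resistin and the angiopoietin-like proteins, 5 were below 0 (median −0.029) and 0 were called. *Angptl6* was lower without overlap, at −0.29 (SE 0.19). Among paralogs of at least 1 CPM, the extremes were *Angptl8* and *Angptl1*, the latter at 0.73 (SE 0.61). *Angptl1* had 25.0 CPM in the third mutant mouse and 5.08 to 9.05 CPM in the others.

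In the alternative complement pathway, in which adipsin cleaves factor B, 9 of 11 genes found were above 0 (median 0.094, 0 called). *C3*, the central component of complement, had the lowest value, −0.047 (SE 0.20). The NAD synthesis genes split into 5 entries below and 6 above 0 (median 0.0027, 0 called). Those without overlap were *Naprt*, the enzyme that uses nicotinic acid, at −0.22 (SE 0.10), and the NAD kinase gene *Nadk*, at −0.21 (SE 0.098), both lower as *Nampt* was. One of 2 entries named *Nnt* had the highest value, 0.62 (SE 0.32).

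Of the 12 renin-angiotensin genes, 5 were below 0 (median 0.035, 0 called). *Mme*, which encodes the peptidase neprilysin, was the only one without overlap, at −0.38 (SE 0.14). Among those of at least 1 CPM, *Mme* was the lowest and *Agtr2* the highest. Renin itself, *Ren1*, was at 0.00832 to 0.148 CPM, so its substrate was measured here with hardly any renin transcript. Retinol handling genes were 6 of 13 below 0 (median 0.0061, 0 called). Those of at least 1 CPM ran from *Rarb* at −0.28 (SE 0.44) to *Aldh1a1* at 0.19 (SE 0.12). *Rara* was the only one of the 13 without overlap, at 0.11 (SE 0.082) and higher in mutant mice. *Ttr*, the plasma partner of *Rbp4*, was at 0 in 4 libraries and at most 0.0173 CPM. Of 22 other proteins known to be released by adipose tissue, 8 were below 0 (median 0.04, 0 called). The lowest of at least 1 CPM was *Ccl2* at −0.30 (SE 0.21), and *Vegfa* was lower and *Lcn2* higher without overlap.

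Without the third *Ebf2E165X/+* mouse, the adipocyte reference genes had 9 of 12 values below 0 and a median of −0.13. The lipoprotein lipase genes then had 9 of 10 below 0 with a median of −0.13, and the transcription factors 10 of 13 with a median of −0.078. The median of the NAD synthesis genes was then 0.17, that of the other proteins released by adipose tissue 0.01, that of the paralogs −0.31 (7 of 8 tested below 0), and edgeR called none of the genes of these lists.

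**Figure D5:**
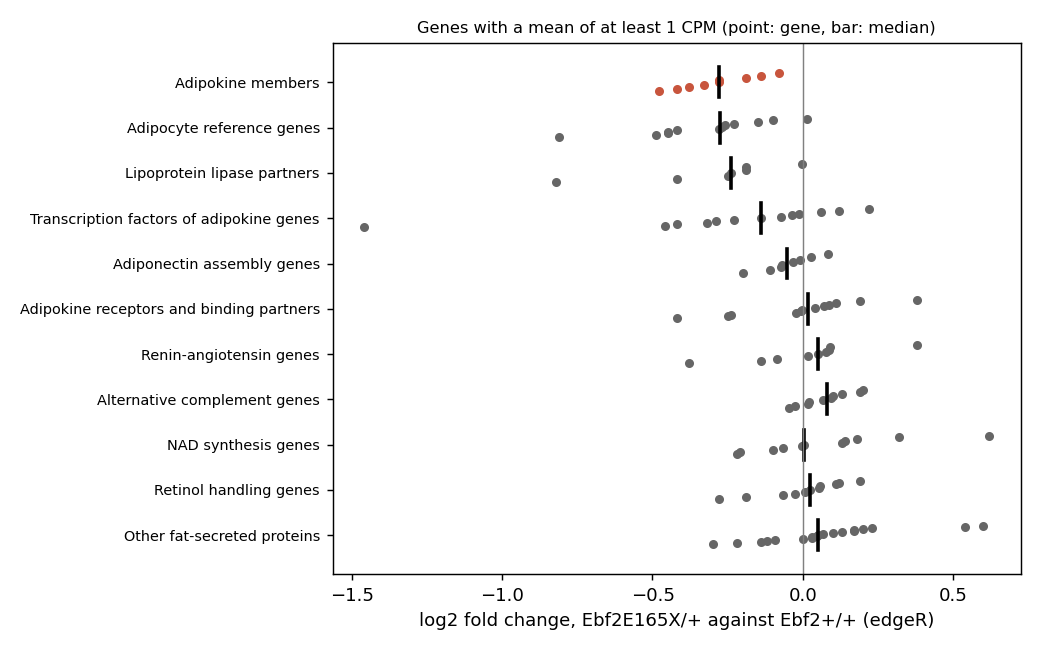
Log2 fold changes, *Ebf2E165X/+* against *Ebf2+/+*, of each gene with a mean of at least 1 CPM in the adipokine list (red) and 10 related lists (grey), with the median of each list as a black bar. The adipokine points all lie left of 0, as do the lipoprotein lipase partners, and the point at −1.46 is *Ppara*.

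Markers of other cells were read in the same libraries. All 8 skeletal muscle markers were highest in the third *Ebf2E165X/+* mouse, none of them was near 0 in any library, and their most abundant gene *Myh4* had 11440 CPM there and 193 to 2355 CPM elsewhere. Their median log2 fold change was 1.98, with 0 called. Without that mouse, 8 of 8 muscle markers were below 0 and the median was −1.07. The part of the muscle transcripts in the values of that library was not tested. Mammary and epithelial markers summed to 76.9, 4.37, and 40.9 CPM in *Ebf2+/+* and 33.0, 3.93, and 8.44 CPM in *Ebf2E165X/+* mice, 4 of 6 below 0 (median −0.47, 0 called), *Krt5* the most abundant, and *Krt8* and *Krt18* below 1 CPM on average. The first wild-type mouse, highest for 6 adipokines, also had the highest sum of these markers, and their part in its values was not tested.

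None of the immune and vascular markers was called. All 7 neutrophil markers were above 0 (median 0.44, 2 without overlap), summing to 37.0 to 57.3 CPM in *Ebf2+/+* and 47.8 to 81.6 CPM in *Ebf2E165X/+* mice, with *S100a9* the most abundant. All 7 lymphocyte markers were above 0 (median 0.24, 2 without overlap), led by *Ms4a1*, with sums of 339, 493, and 513 against 528, 593, and 534 CPM. All 8 macrophage markers were above 0 (median 0.11), with *Lyz2* the most abundant and sums of 1478 to 1880 against 1802 to 1998 CPM. The 7 endothelial markers were all below 0 (median −0.18, 2 without overlap), led by *Pecam1*, and summed to 1077 to 1178 against 855 to 1088 CPM. Stromal progenitor markers were above 0 for 7 of 8 (median 0.091), led by *Col1a1*, with sums of 5366 to 7310 against 6972 to 7043 CPM. All 5 red cell markers were above 0 (median 0.13), with sums of 2135 to 3315 against 2002 to 4550 CPM and *Hbb-bs* the most abundant. Of the 6 liver markers, 4 were above 0 (median 0.32, 0 called), 5 were below 1 CPM on average in all libraries together, among them *Ttr* and *Fgb* near 0, and the most abundant, *Alb*, was at 8.77 to 17.2 CPM. Without the third *Ebf2E165X/+* mouse, the median was 0.21 for neutrophil, 0.28 for lymphocyte, 0.35 for red cell, and −0.12 for endothelial markers. The part of these cell types in the adipokine values was not tested.

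Brown and beige adipocyte markers, in contrast, included 1 gene called by edgeR and 3 called by DESeq2. All 6 were below 0, with a median of −1.67, 3 without overlap, and their sum was 152, 205, and 196 CPM in *Ebf2+/+* and 30.0, 35.4, and 71.6 CPM in *Ebf2E165X/+* mice. *Cidea*, a lipid droplet protein gene of brown fat and the most abundant of them, fell by 3.24 on the log2 scale (SE 0.20, adjusted *P* = 0.00462 in edgeR). *Ucp1*, the uncoupling protein of heat production, and *Otop1* were called by DESeq2 (adjusted *P* = 4.87e-18 and 8.92e-11), at −5.83 (SE 0.55) and −1.65 (SE 0.23). With all 6 libraries edgeR did not call this pair, while without the third *Ebf2E165X/+* mouse it called *Cidea*, *Ucp1*, and *Ebf2*, and the median of the brown and beige list was −1.85. *Cox7a1* had a value of −0.68 (SE 0.72). The 4 *Ebf* genes had 3 values below 0 and a median of −0.12. DESeq2 called *Ebf2* among them. *Ebf1* had a log2 fold change of −0.025 (SE 0.11) and *Ebf3* of −0.21 (SE 0.094), the latter without overlap and lower. The difference between the brown and the white lists was not tested.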

How the data were processed

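The authors deposited expected counts, which are estimated numbers of fragments per gene, for 6 IWAT libraries without normalization for library size; all were whole numbers. The submitters' processing notes name cutadapt 4.8, FastQC 0.11.8, STAR 2.7.8a, RSEM 1.3.3, MultiQC 1.20, and GRCm38, with no roles. The labels name an NEB kit and the supplement 3′ libraries, and which applies was not settled. Each library is from a separate mouse by its label.

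Counts were tested in R 4.3.3 with edgeR 4.0.16 (glmQLFit, glmQLFTest, TMM factors of 0.949 to 1.06, genotype only, genes counted at least 1 time in some library, Benjamini-Hochberg over all 32664 genes). A gene was called at an adjusted *P* under 0.05 and a fold change above 1.5. Transgene entries (4, all at 0) were left out. SE and 95% intervals come from the quasi-likelihood *F* statistic. DESeq2 1.42.0 and limma-voom (limma 3.58.1) were alternatives, as were DESeq2's size factors, a replicate block, filterByExpr, a minimum of 10 counts per library, mitochondrially encoded genes or muscle markers left out, and each mouse left out in turn. Logs of CPM used a prior count of 2. Exact permutation tests used scipy 1.17.1. The scripts were tested on simulated data of 31689 genes, 200 of them changed by 2 on the log2 scale. There edgeR recovered 157 changed genes and called 37 unchanged ones. DESeq2 recovered 182 and called 105 unchanged ones, and limma-voom recovered 151 and called 12 unchanged ones.

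The members and gene lists were chosen with earlier results of these data known. Named were the members, *Ebf2*, the 3 genes most like each member, and per list the highest and lowest log2 fold change among genes of at least 1 CPM, any called gene, receptors and direct partners by role, and, chosen after their values were seen, genes without overlap. Of the symbols listed, *Masp3* was not matched, and results for a few listed genes are not reported here. Totals were 106820505 to 135039488 counts a library. Intervals cover the spread between these mice.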

Additional observations from a re-analysis of the deposited data

How the results depend on the processing

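Across 14 alternative settings, 124 of 126 fold changes of the 9 adipokines kept their direction, and none passed the threshold. The 2 that reversed were *Cfd*, at 0.11 without the third *Ebf2E165X/+* mouse (−0.24 to 0.11 with each mouse left out), and *Angptl4*, at 0.041 without the third *Ebf2+/+* mouse (−0.25 to 0.041); the cause was not tested. The smallest adjusted *P* of any member was 0.228 (*Nampt*, DESeq2). The count of members called was 0 under every alternative. The number of genes called was 3, 98 with DESeq2, and 1 to 11 with each mouse left out, 11 without the third *Ebf2E165X/+* mouse and 1 without the second *Ebf2+/+* mouse. The number of members without overlap was 2, and it was 1 (*Nampt*) by library totals with no factors. The share of all genes without overlap by library totals is not reported here, so that count has no background to be read against. With each mouse left out, the number was 2 to 4. It was 4 without the third *Ebf2+/+* mouse (*Adipoq*, *Nampt*, *Apln*, and *Agt*, all lower, beside 10.3% of all genes lower and 11.3% higher). It was also 4 without the first *Ebf2E165X/+* mouse (*Adipoq*, *Retn*, *Nampt*, and *Agt*, all lower, beside 10.3% lower and 9.44% higher). Relative to the adipocyte reference genes, the count was 0, 1 with summed CPM (*Cfd*, higher, beside 21.4% of all genes higher), and 0 to 2 with each mouse left out, the 2 being *Cfd*, higher, and *Nampt*, lower, without the third *Ebf2E165X/+* mouse, beside 35.4% of all genes higher and 3.64% lower; over the 6 omissions, 39.1% to 51.3% of all genes separated.

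With the replicate number as a block, 2 genes and 0 members were called. The deviations of mice that share a number correlated at −0.156, 0.0726, and −0.458 over 14966 genes. The labels do not say whether such mice share a litter or batch, and these correlations cannot settle it. The 95% intervals of 8 members include 0, and that of *Nampt* does not, though it did not pass after adjustment over all genes. The effects of depth and of the number of mice were not compared. Leaving the third *Ebf2E165X/+* mouse out of the related and marker lists was chosen after seeing the data.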
